A study of Mus musculus with 8 samples.

Results

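The *Slit* and *Robo* genes and the srGAP genes that act below them were examined in cerebral cortex at postnatal day 1 (P1). They comprise the 3 ligand genes *Slit1*, *Slit2* and *Slit3*, the 4 receptor genes *Robo1*, *Robo2*, *Robo3* and *Robo4*, and the 3 genes *Srgap1*, *Srgap2* and *Srgap3*, which encode GTPase activating proteins that bind the Robo tail (srGAPs). The 10 genes were chosen by symbol from the 48709 genes of the count tables, and the family was picked because *Robo3* was already known to be raised in these libraries. The contrast of *Robo3* is therefore given as a description, with no p value. All 10 genes passed the filter on low counts, with 16287 genes tested in all.

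RNA was measured in 4 control and 4 dcKO_Nex-Cre samples of cortex. The study asked how the chromatin remodelling BAF complex directs the migration of excitatory neurons in the developing cortex. These libraries come from its model in which the complex is lost from neurons after their last division. Other models of the study removed it from progenitors. In dcKO_Nex-Cre, both alleles of BAF155 (gene *Smarcc1*) and BAF170 (gene *Smarcc2*), the scaffold subunits of the complex, were floxed and removed by Nex-Cre, which acts in the glutamatergic principal neurons of the cortex. The controls carried heterozygous floxed alleles (BAF155fl/+, BAF170fl/+) without Cre, all on the C57BL6/J background, so that floxed alleles were common to both groups. The labels themselves give only Control or Mutant and the age, and the Cre line comes from the methods of the study. Interneurons, glia, vessels and meninges keep both genes in this model, and RNA was taken from whole tissue. In such a bulk sample, fewer cells of a type and less RNA per cell cannot be told apart.

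Total counts ran from 17958641 to 35191912 per library. *Smarcc2* was at 428.5 to 486 CPM (counts scaled to library size) in the control and at 241 to 292 CPM in the dcKO_Nex-Cre cortex, and *Smarcc1* at 138.6 to 164.4 CPM and 93.0 to 122 CPM, so that both targets were lower in every mutant library than in any control. The 10 markers of cortical pyramidal neurons summed to 1753 to 2041 CPM in the control and 1553 to 1757 CPM in the mutant libraries, and 1 of the 10, *Neurod6*, passed the test (lower, adjusted p = 0.0192). *Neurod6* is the Nex gene itself, whose locus carries Cre in the Nex-Cre line, and the other 9 markers summed to 1169 to 1291 CPM in the control against 1131 to 1346 CPM in the mutants. Within that sum *Fezf2* and *Slc17a7* were at 68.2% and 68.7% of the control and *Neurod1* at 128%, none of them called by edgeR. DESeq2 called 2 of the 10 markers lower and 0 higher, beside 1.71% and 1.32% of all genes. Mitochondrial genes took 6.87% of the counts in control replicate 2 and 6.15% in dcKO_Nex-Cre replicate 4, against 2.33% to 4.24% in the other 6 libraries, and values without replicate 4 of the mutant are given where they differ. File names put all 4 controls and mutant replicates 1 and 2 under lane tag 2 and mutant replicates 3 and 4 under lane tag 8.

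Slit proteins are large secreted cues that repel growing axons and migrating neurons. They bind the immunoglobulin domains of Robo receptors on the cell surface, and the cytoplasmic tail of Robo then recruits srGAPs and adaptor proteins that act on small GTPases and actin. In the forebrain this signalling keeps axons out of the midline and the ventral brain, guides callosal and corticofugal tracts, and takes part in neuronal migration. *Robo3* is the divergent receptor: in commissural neurons of the hindbrain and spinal cord it permits axons to cross the midline, and mammalian Robo3 does not bind Slits with high affinity.

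The sequence directly before *Robo3* is printed because *Robo3* was the member that differed most between the groups. The gene lies on the minus strand of chromosome 9 (37415669 to 37433246, mm10), tail to tail with *Robo4* on the plus strand, whose last base lies 554 bases from the end of *Robo3*. The run below covers the 179 bases before the gene start annotated in GENCODE M21 (chr9:37433247-37433425, minus strand, 5′ to 3′) and holds no base transcribed in that annotation. Its bases were read from the RefSeq promoter table (GRCm38.p6), whose window for *Robo3*, chr9:37433126-37433425, runs on into the gene. Capitals mark TAATTA, the core bound by LIM homeodomain proteins such as Lhx2, and CACCTG, an E-box.
Robo3 upstream: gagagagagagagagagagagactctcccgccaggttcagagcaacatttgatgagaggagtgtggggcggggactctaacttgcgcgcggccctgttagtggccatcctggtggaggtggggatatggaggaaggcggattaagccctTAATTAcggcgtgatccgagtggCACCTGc
TAATTA begins 30 bases and CACCTG 7 bases before the gene start. Both were picked after the sequence had been read, and each was searched on both strands. Of 32851 promoter windows of 300 bases in the table, 5.3% held TAATTA, 20.2% held CACCTG and 17.2% held a further E-box, CAGATG. Windows were found for 9 of the 10 members, 11 windows in all. Among them TAATTA lay in the window of *Robo3* alone, CACCTG in those of *Robo3* and *Robo1*, and CAGATG in none. A match of letters is a description and not a binding site.

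A second feature of the family is a microRNA that sits inside the ligand genes and whose seed is matched in the transcripts of several receptors. The hairpin genes *Mir218-1* and *Mir218-2* lie in introns of *Slit2* (chr5:48223942-48224051, plus strand) and *Slit3* (chr11:35616816-35616925, plus strand), and no exon of either host overlaps them. Both give the same mature miR-218-5p, printed with its seed, bases 2 to 8, in capitals (RefSeq, GRCm38.p6).
miR-218-5p: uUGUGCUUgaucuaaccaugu
Both hairpin genes had 0 counts in all 8 libraries, which were made from longer RNA and do not measure mature microRNAs. The match to the seed, AAGCACA, occurred in the longest annotated 3′ UTR of 6 of the 10 genes, namely *Robo1*, *Robo2*, *Robo3*, *Slit2*, *Srgap2* and *Srgap3*, and not in those of *Robo4*, *Slit1*, *Slit3* and *Srgap1*. It occurred in 14.8% of the longest 3′ UTRs of 21173 genes, whose median length was 1084 bases, and in 27.1% of those of 1700 to 4817 bases. The 3′ UTRs of the members ran from 365 to 4817 bases. The bound of 1700 bases was set by hand, and those of *Robo3* (736 bases), *Slit1* (1212 bases) and *Slit3* (365 bases) lay below it. The count over all 10 genes is therefore not a like comparison with the 27.1%. The 6 sites in receptor and ligand transcripts are shown with the match in capitals, in the sense of each transcript, on GRCm38.
Robo1 (chr16:73045336-73045360, plus): ttttggttttaaAAGCACAatcact
Robo2 (chr16:73895353-73895377, minus): ttatttggtgatAAGCACAaatctc
Robo2 (chr16:73893027-73893051, minus): cacggcagacccAAGCACAgcttct
Robo3 (chr9:37416239-37416263, minus): tgtgactcactgAAGCACActgtct
Slit2 (chr5:48304531-48304555, plus): caatactagcagAAGCACAtctaca
Slit2 (chr5:48306834-48306858, plus): taattattagcaAAGCACAtaaatt

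Ligands, receptors and srGAPs of the family differed widely in level in the control cortex. Levels are compared between genes as CPM per kilobase of exon (RPKM). *Srgap3* was highest, at 35.2 ± 2.49 RPKM (SD, n = 4), followed by *Srgap2* at 19.6 ± 0.93 RPKM and *Robo2* at 13.8 ± 0.81 RPKM. *Srgap1* (10.4 ± 1.55 RPKM), *Robo1* (10.4 ± 0.53 RPKM) and *Slit1* (9.70 ± 1.12 RPKM) came next. *Slit3* (1.71 ± 0.22 RPKM), *Slit2* (1.35 ± 0.086 RPKM), *Robo4* (1.11 ± 0.13 RPKM) and *Robo3* (0.505 ± 0.095 RPKM) formed the low end. Of the neighbours in this order, *Robo2* and *Srgap1*, *Srgap1* and *Robo1*, and *Robo1* and *Slit1* had library ranges that overlapped, and each of the other neighbouring pairs did not. In the dcKO_Nex-Cre cortex *Robo3* moved from rank 10 to rank 7 and *Slit3* from rank 7 to rank 10, while *Robo1* and *Srgap1* exchanged ranks 4 and 5. These levels depend on the length used, since the union of exons of *Slit2*, *Robo1* and *Robo2* is much longer than their longest transcript. Per kilobase of the longest transcript, *Slit2* was at 3.46 ± 0.22 RPKM in the control, above *Slit3* at 1.99 ± 0.26 RPKM, *Robo2* was at 27.3 ± 1.597 RPKM, and *Robo1*, at 22.7 ± 1.16 RPKM, stood above *Srgap1* at 12.2 ± 1.82 RPKM. *Robo3* remained lowest at 0.692 ± 0.13 RPKM and moved to rank 8 in the mutant.

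**Figure D1:**
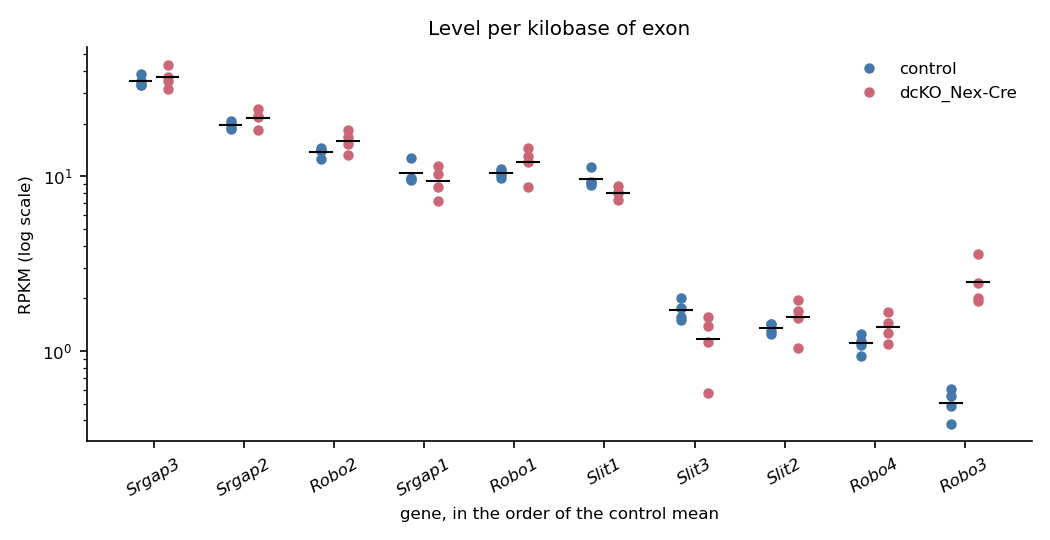
Level of each gene per kilobase of exon (RPKM, log scale) in the 4 control and the 4 dcKO_Nex-Cre libraries, with genes in the order of the control mean; each point is 1 library and each bar the mean of its group. *Srgap3* stood highest in both groups, and *Robo3* was lowest in the control and seventh in the mutant.

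Of the ligand genes, *Slit1* had a control mean of 57.5 ± 6.64 CPM and a dcKO_Nex-Cre mean of 47.8 ± 3.56 CPM (SD, n = 4 each), *Slit3* was at 10.4 ± 1.35 and 7.07 ± 2.62 CPM, and *Slit2* at 34.4 ± 2.19 and 39.7 ± 9.82 CPM. None of the 3 passed the adjusted threshold of 0.05 in edgeR's quasi-likelihood test over all genes. In that test 0.884% of the 16287 genes passed, 0.375% higher and 0.510% lower in the mutant. At an unadjusted p under 0.05, 2 of the 3 passed, *Slit1* and *Slit3*, both lower, against 13.6% of all genes, 6.59% higher and 7.05% lower. DESeq2 called none of the 3.

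*Slit1*, the Slit with the highest level in this tissue, was read at 52.9, 67.3, 55.1 and 54.5 CPM in control replicates 1 to 4 and at 52.1, 48.3, 47.6 and 43.4 CPM in dcKO_Nex-Cre replicates 1 to 4. The lowest control lay just above the highest mutant library, so the groups did not overlap, as was so for 3.99% of all genes tested in the higher and 4.01% in the lower direction. With the mutant at 83.2% of the control, its log2 fold change was -0.26 ± 0.09 (SE), and the adjusted p of 0.257 did not pass. Without mutant replicate 4 the log2 fold change was -0.22 (adjusted p = 0.152). Control replicate 2 stood above the other 3 controls.

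*Slit2*, the best studied midline repellent, was at 36.5, 36.1, 32.0 and 33.2 CPM in the control and at 49.8, 39.1, 43.3 and 26.5 CPM in the mutant libraries. Mutant replicates 1, 2 and 3 lay above every control, and mutant replicate 4 lay below every control. Over all 8 libraries *Slit2* had a log2 fold change of 0.21 ± 0.16 (SE, adjusted p = 0.566). Without mutant replicate 4 it was 0.36 ± 0.09 (SE, adjusted p = 0.0392) and *Slit2* was called higher. Without mutant replicate 1 it was 0.08 (adjusted p = 0.892), and with 1 surrogate variable 0.07 (adjusted p = 0.803).

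*Slit3* was at 12.1, 9.14, 10.7 and 9.52 CPM in the control and at 9.48, 6.86, 8.46 and 3.48 CPM in the mutant cortex. Mutant replicates 2, 3 and 4 lay below every control, and mutant replicate 1 lay within their range. For *Slit3* the log2 fold change was -0.54 ± 0.24 (SE, adjusted p = 0.364) and became -0.32 (adjusted p = 0.175) without mutant replicate 4. With 1 surrogate variable in the fit, *Slit3* was at -0.82 and passed the threshold (adjusted p = 0.0104), 1 lower call among the members where 4.11% of all genes were called, 1.45% higher and 2.66% lower.

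Within each library the ligands can be set against each other, which removes the scale of the library. *Slit3* over *Slit2*, as a ratio of CPM, was 0.302 ± 0.039 in the controls (SD, n = 4, 0.253 to 0.335) against 0.173 ± 0.029 in the mutant libraries (n = 4, 0.131 to 0.195), without overlap. *Slit1* over *Slit2* was 1.67 ± 0.17 in the controls (1.45 to 1.87) against 1.26 ± 0.27 in the mutants (1.05 to 1.64), where the ranges overlapped through mutant replicate 4. These ratios were chosen after the values had been seen and were not tested. Summed per kilobase, the 3 ligands were at 12.8 ± 1.02 RPKM in the control and 10.8 ± 1.40 RPKM in the mutant cortex, of which *Slit1* made up 75.9% ± 3.003 and 75.2% ± 4.79 (64.9% ± 3.25 and 61.9% ± 5.56 with the longest transcript as length).

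**Figure D2:**
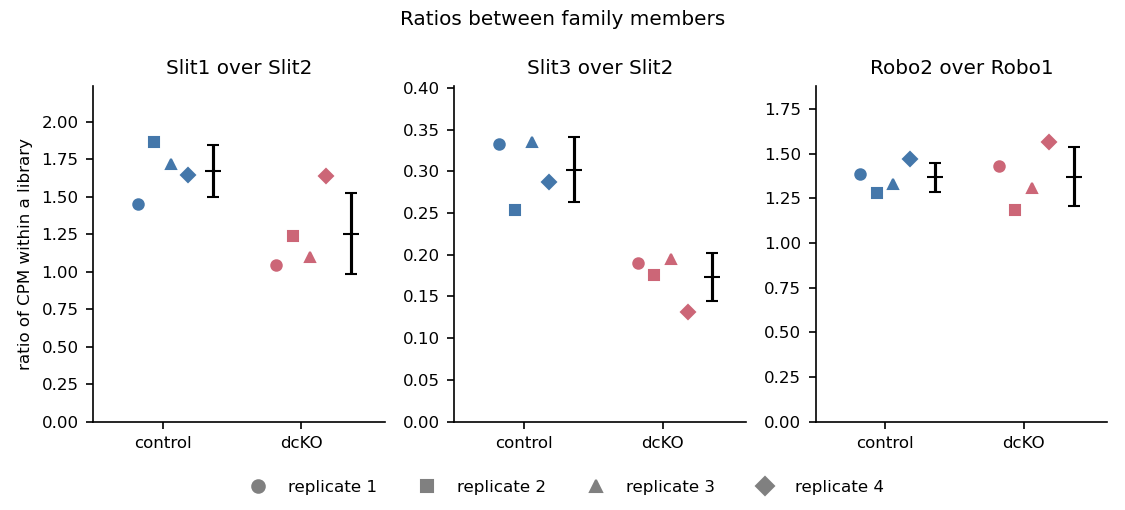
Ratio of CPM between pairs of genes within each library, for *Slit1* over *Slit2*, *Slit3* over *Slit2* and *Robo2* over *Robo1*; points are libraries, shapes are replicate numbers, and black marks give the mean and SD of each group. *Slit3* over *Slit2* did not overlap between the groups (0.253 to 0.335 against 0.131 to 0.195), while *Robo2* over *Robo1* had the same mean of 1.37 in both.

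Of the receptor genes, *Robo3* was far higher in the dcKO_Nex-Cre cortex, at 17.1 ± 5.26 CPM against 3.46 ± 0.65 CPM in the control (SD, n = 4 each), a 4.94-fold difference in means. *Robo1*, *Robo2* and *Robo4* had log2 fold changes between 0.21 and 0.31 over all 8 libraries and did not pass the threshold, and at an unadjusted p under 0.05 none of these 3 passed. Over the 10 genes of the family 1 was called higher (*Robo3*) and 0 lower, by edgeR and by DESeq2 alike, beside 0.884% of all genes by edgeR and 3.03% by DESeq2 (1.32% higher and 1.71% lower). Since *Robo3* is the gene that led to the choice of the family, nothing is read from that count.

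*Robo3* was at 3.30, 3.78, 2.63 and 4.14 CPM in control replicates 1 to 4, from 63 to 94 reads per library. In dcKO_Nex-Cre replicates 1 to 4 it was at 13.2, 13.8, 16.7 and 24.6 CPM, from 359 to 457 reads. Every mutant library lay far above the highest control, and mutant replicate 4 was the highest of all. Its log2 fold change was 2.30 ± 0.22 (SE), which ranked 3 among the 16287 genes, and leaving out single libraries gave 2.08 to 2.41. Within lane tag 2 it was 1.97, and without mutant replicate 4 the mutant mean was 421% of the control.

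*Robo3* also took a larger share of the receptor transcripts. Summed per kilobase, the 4 receptors were at 25.8 ± 1.15 RPKM in the control and 32.0 ± 3.95 RPKM in the mutant cortex. *Robo3* made up 1.97% ± 0.43 of that sum in the control (1.44% to 2.36%) and 8.14% ± 3.69 in the mutant (5.55% to 13.5%), so *Robo1* and *Robo2* remained the bulk of it in both groups. With the longest transcript as length the share was 1.34% ± 0.30 and 5.70% ± 2.69. The counts are per gene, so the isoforms of *Robo3* that act before and after midline crossing are not told apart. The habenula is known to express *Robo3*. Markers of thalamus and habenula summed to 84.8 to 99.4 CPM in the control and 69.2 to 89.0 CPM in the mutant libraries. Of these markers 0 of the 5 tested were called, and the habenular *Pou4f1* was at 0.044 to 0.547 CPM and at 0 to 0.225 CPM. *Slc17a6* alone had a control mean of 63.0 CPM, so a small habenular part could not be seen in the sum. Whether tissue of other regions took part in the *Robo3* values was not tested.

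*Robo1*, a main Slit receptor of callosal and corticofugal axons, was at 177, 167, 181 and 162 CPM in the control and at 218, 242, 199 and 144 CPM in the mutant libraries. Mutant replicates 1, 2 and 3 lay above every control, and replicate 4 below every control. Its log2 fold change was 0.22 ± 0.13 (SE, adjusted p = 0.472). It was 0.36 (adjusted p = 0.0281) without mutant replicate 4 and 0.42 (adjusted p = 0.0463) within lane tag 2, and passed in both. It was 0.13 (adjusted p = 0.756) without mutant replicate 2 and 0.12 (adjusted p = 0.546) with 1 surrogate variable. With that lane tag *Robo1* was the only member called higher besides *Robo3*, by which the family was chosen. In that fit 0 members were lower, and 1.48% of all genes were called, 0.834% higher and 0.643% lower.

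*Robo2*, which acts together with *Robo1* on many of the same tracts, was at 245.5, 214, 240.2 and 238 CPM in the control and at 311, 286, 260.2 and 226 CPM in the mutant. Again mutant replicates 1, 2 and 3 lay above every control, while replicate 4 fell inside the control range. Over all libraries the log2 fold change was 0.21 ± 0.10 (SE, adjusted p = 0.389), and 0.29 (adjusted p = 0.0499) without mutant replicate 4. It was 0.14 (adjusted p = 0.664) without mutant replicate 1 and 0.13 (adjusted p = 0.264) with 1 surrogate variable. The ratio of *Robo2* to *Robo1* CPM was 1.37 ± 0.08 in the control and 1.37 ± 0.16 in the mutant cortex.

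*Robo4*, the endothelial member of the family, was at 5.77, 4.98, 6.05 and 6.65 CPM in the control and at 7.65, 8.89, 6.73 and 5.84 CPM in the mutant. Mutant replicates 1, 2 and 3 lay above every control, with replicate 4 inside their range. The log2 fold change was 0.31 ± 0.16 (SE, adjusted p = 0.399), and 0.41 (adjusted p = 0.103) without mutant replicate 4. The 9 endothelial markers summed to 131 to 194.5 CPM in the control and 171.5 to 219 CPM in the mutant libraries. Of their log2 fold changes 9 of 9 were above 0, beside 8283 of 16287 genes, and none was called. Control replicate 2, with its high mitochondrial share, was the lowest control for each of the 9 and gave the sum of 131 CPM. *Cldn5*, for example, was at 40.8 CPM there, 53.1 to 57.7 CPM in the other controls and 48.1 to 59.0 CPM in the mutants. The count of signs without that library was not made. Without mutant replicate 4, 1 of the 9 was called higher (*Flt1*, edgeR adjusted p = 0.0404), beside 3.98% of all genes. The part of these markers in the value of *Robo4* was not tested.

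**Figure D3:**
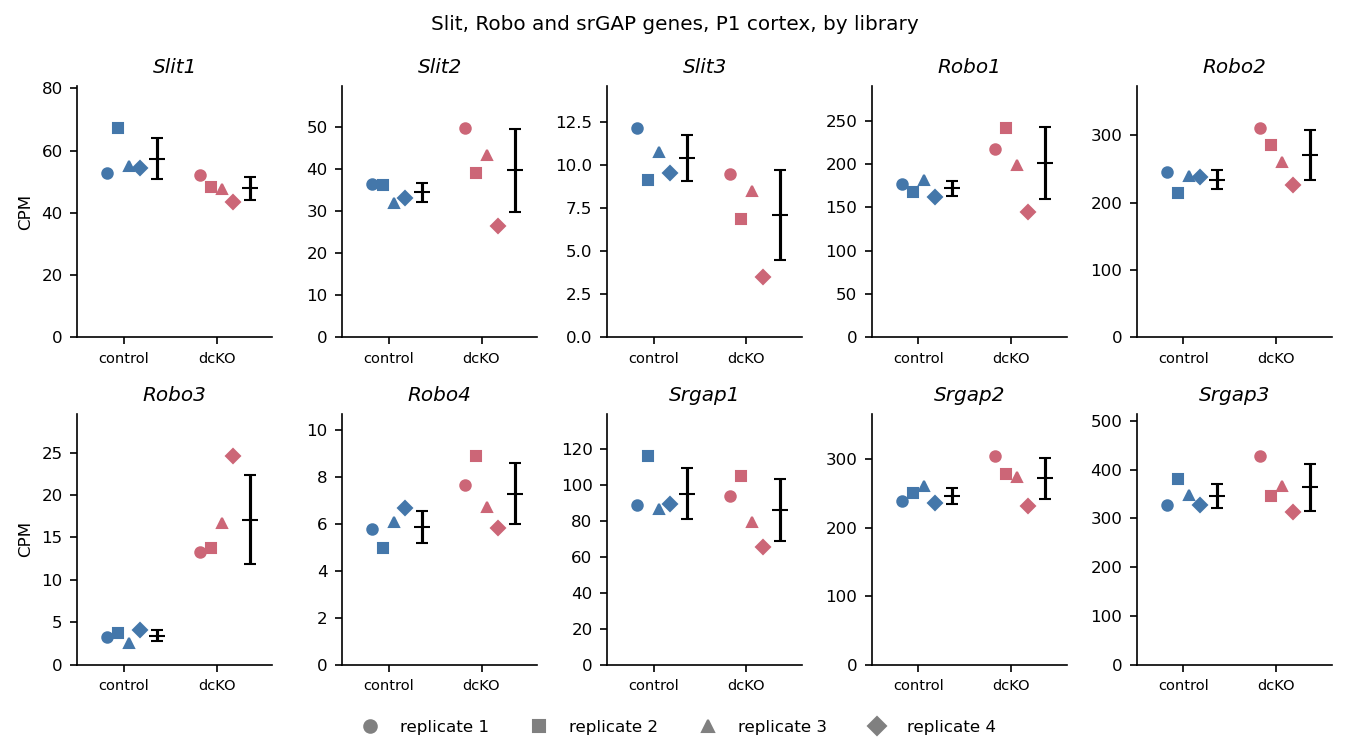
CPM of each of the 10 genes in every library, with the 3 ligands, the 4 receptors and the 3 srGAP genes in turn; shapes are replicate numbers, black marks give the mean and SD of each group, and each axis starts at 0. *Robo3* separated the groups by far (2.63 to 4.14 against 13.2 to 24.6 CPM), and mutant replicate 4 was the lowest mutant library for each of the other 9 genes.

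The srGAP genes were expressed at high level, and 0 of the 3 were called by edgeR, by DESeq2 or at an unadjusted p under 0.05. *Srgap1* was at 88.8, 117, 86.7 and 89.5 CPM in the control and at 94.0, 105, 79.7 and 65.7 CPM in the mutant, with a log2 fold change of -0.14 ± 0.14 (SE, adjusted p = 0.675). It was -0.03 without control replicate 2, and also -0.03 without mutant replicate 4. *Srgap2*, whose product shapes the membrane of migrating neurons and dendritic spines, was at 238, 251, 261 and 236 CPM and at 305, 278, 273 and 232 CPM, a log2 fold change of 0.14 ± 0.09 (adjusted p = 0.508). For *Srgap3* the values were 328, 380.0, 349 and 328 CPM in the control and 429, 347, 367 and 314 CPM in the mutant cortex, a log2 fold change of 0.07 ± 0.10 (adjusted p = 0.778). Without mutant replicate 4, *Srgap2* was at 0.21 (adjusted p = 0.0906) and *Srgap3* at 0.14 (adjusted p = 0.329). All 3 ranges overlapped between the groups. The sign for *Srgap1* turned to 0.07 within lane tag 2, and that for *Srgap3* to -0.02 without mutant replicate 1.

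The spread between libraries was larger in the mutant group for 9 of the 10 genes, *Slit1* being the exception. The same count over all genes was not made, so it is not read as a trait of the family. Over the 10 genes the coefficient of variation was between 4.76% and 18.9% for controls, between 7.45% and 37.1% for mutants, and it was 5.10% against 20.6% for *Robo1* and 13.0% against 37.1% for *Slit3*. *Robo3*, by which the family was chosen, was called in the 2 fits that follow and is left out of their counts. Without mutant replicate 4, edgeR called 3 of the other 9 members higher (*Robo1*, *Robo2* and *Slit2*) and 0 lower. In that fit 7.73% of the 16539 genes tested were called, 3.98% higher and 3.74% lower. With control replicate 2 left out as well, the other library with a high mitochondrial share, the same 3 members were called, with 5.49% of all genes called higher and 5.50% lower. The median log2 fold change of the 9 genes besides *Robo3* was 0.14 over all libraries and 0.21 without mutant replicate 4, beside 0.0043 and 0.0030 for all genes tested.

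**Figure D4:**
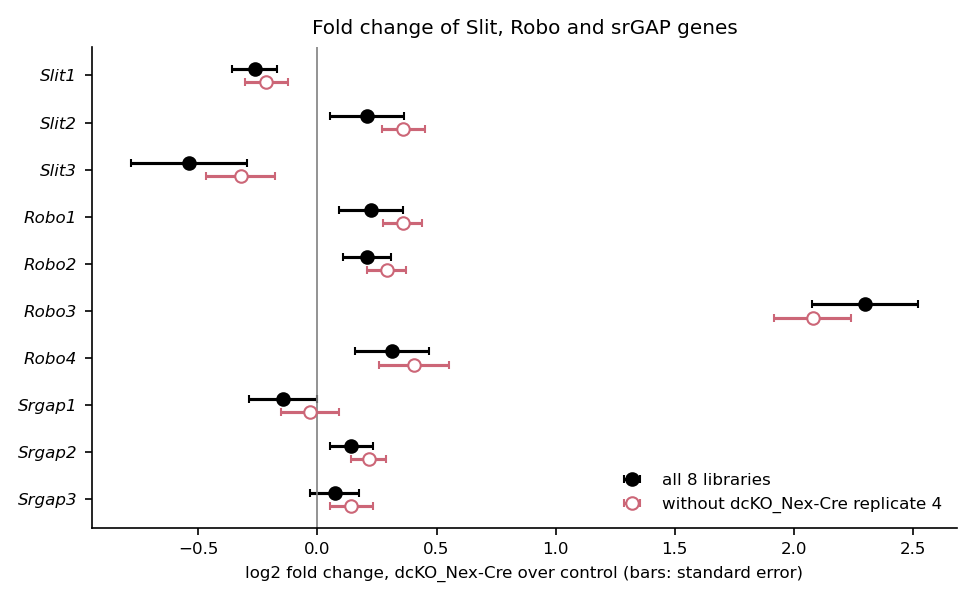
log2 fold change, dcKO_Nex-Cre over control, of each gene from edgeR, with its standard error, over all 8 libraries (filled) and without dcKO_Nex-Cre replicate 4 (open). *Robo3* stood at 2.30 and 2.08, and the other 9 genes lay between -0.54 and 0.41 in both fits.

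Of 58 further genes listed for Slit-Robo signalling, 56 were tested, and 1 was called higher (*Nova1*) and 1 lower (*Rbm24*), 3.57% of the list against 0.884% of all genes. The list was written with earlier results of these data known, so its shares are a description and nothing is read from them. At an unadjusted p under 0.05, 4 were higher (7.14%, against 6.59% of all genes) and 7 lower (12.5%, against 7.05%). The median log2 fold change of the list was 0.034, beside 0.0043 for all genes. In the list of transcriptional and RNA-level regulators, *Nova1*, an RNA-binding protein known to control the splicing of a microexon in *Robo1* and *Robo2*, was at 61.7, 70.2, 57.0 and 64.4 CPM in the control and 91.4, 87.6, 87.4 and 75.4 CPM in the mutant libraries, without overlap (log2 fold change 0.43, adjusted p = 0.0487). *Rbm24*, an RNA-binding regulator of splicing, was at 21.9, 20.7, 21.0 and 21.9 CPM and fell to 15.7, 14.4, 13.5 and 14.3 CPM (log2 fold change -0.56, adjusted p = 0.0172). With single libraries left out, the log2 fold change ran from 0.39 to 0.49 for *Nova1* (adjusted p = 0.0075 to 0.17) and from -0.61 to -0.53 for *Rbm24* (adjusted p = 0.00821 to 0.0938). *Nova1* passed in 2 of the 8 such fits (without control replicate 2 or mutant replicate 4), and *Rbm24* in 3 (without these or mutant replicate 1). *Lhx2*, a LIM homeodomain factor known to act on *Robo3*, was at 111 to 167 CPM in the control and 113 to 152 CPM in the mutant cortex (log2 fold change 0.03, adjusted p = 0.936).

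None of the 16 co-ligands and co-receptors, the 8 genes for receptor trafficking and cleavage, or the 24 cytoplasmic effectors passed in edgeR. At an unadjusted p under 0.05 there were 1 higher and 2 lower, 1 higher and 1 lower, and 0 higher and 2 lower in these lists in turn, in all 4.17% higher and 10.4% lower against 6.59% and 7.05% of all genes. DESeq2 called 1 of these 48 genes, *Flrt2*, higher, where it called 1.32% of all genes higher and 1.71% lower. *Flrt2*, an adhesion protein of the FLRT family, some members of which bind Robo1, was at 92.8 to 107 CPM in the control and 113 to 134 CPM in the mutant libraries (log2 fold change 0.35, adjusted p = 0.0809). *Sdc1*, a heparan sulphate proteoglycan, was at 17.3 to 23.96 CPM against 14.8 to 17.1 CPM (log2 fold change -0.36, adjusted p = 0.187). *Nell2*, a ligand of Robo3, was at 306 to 490 CPM and 349 to 618 CPM (log2 fold change 0.12, adjusted p = 0.791) and *Dcc*, the netrin receptor that Robo3 and Robo1 associate with, at 30.8 to 40.1 CPM and 24.98 to 37.1 CPM (log2 fold change -0.07, adjusted p = 0.824). *Nell2*, *Dcc* and *Lhx2* are named for their known tie to *Robo3*, after their values had been seen.

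For the trafficking list, *Ndfip2*, an adaptor of Nedd4 ubiquitin ligases, had a log2 fold change of -0.19 (adjusted p = 0.239) and *Nedd4* itself of 0.30 (adjusted p = 0.366). For the effectors, the actin-binding profilin gene *Pfn2* was at -0.21 (adjusted p = 0.249) and the kinase gene *Pak3* at -0.24 (adjusted p = 0.298). Without mutant replicate 4, 5 of the 56 genes were called higher (*Upf2*, *Nedd4*, *Dag1*, *Nova1* and *Flrt2*) and *Rbm24* lower, beside 7.73% of all genes. *Upf2* encodes a factor of nonsense-mediated decay, which limits an isoform of *Robo3*, and *Dag1* encodes dystroglycan, which binds Slits.

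Of 16 annotated genes within 250 kb of the *Robo3* gene body on chromosome 9, *Robo3* included, 13 besides *Robo3* were tested by edgeR, 0 of these were called (0.884% of all genes were) and 1, *Slc37a2*, passed at an unadjusted p under 0.05 (7.69%, against 13.6% of all genes). Their log2 fold changes ran from -0.56 (*Gm10177*) to 0.41 (*Slc37a2*, adjusted p = 0.32) with a median of -0.01, against 2.30 for *Robo3*. *Robo4*, the nearest gene, was at 0.31, and *Msantd2*, the nearest gene on the upstream side, was at -0.01 (33.9 ± 2.25 and 33.7 ± 3.51 CPM). *Hepacam*, which encodes a glial adhesion protein, was at 0.40 (adjusted p = 0.384) and was called higher without mutant replicate 4. DESeq2 called none of the 13.

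**Figure D5:**
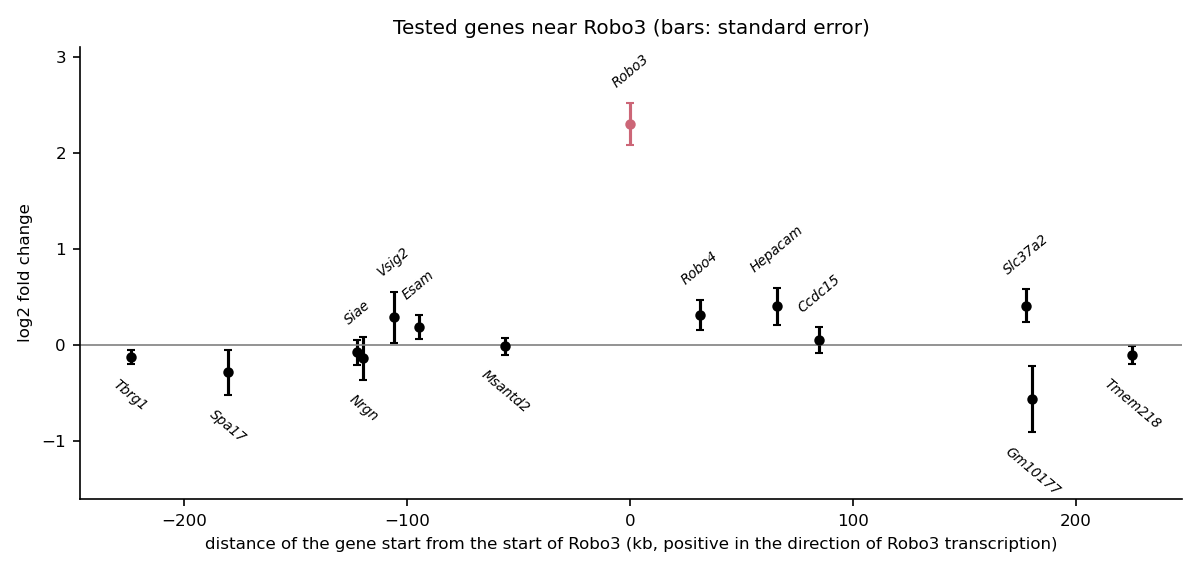
log2 fold change with standard error of the tested genes within 250 kb of *Robo3*, by the distance of each gene start from that of *Robo3* in kilobases. *Robo3* stood at 2.30, and the other 13 genes lay between -0.56 and 0.41.

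The genes whose values lay nearest to those of *Robo3* were sought by the root mean square difference of log2 CPM over the 8 libraries, after the control mean of each gene was subtracted, among 12042 genes with at least 100 counts on average. The measure holds the group difference itself, so it is a description. The nearest was *Rgs9bp*, which encodes a membrane anchor of an RGS protein, at a difference of 0.26 log2 units. It was at 4.02 ± 0.53 CPM in the control and 18.3 ± 4.41 CPM in the mutant cortex, with its highest value, 23.6 CPM, in mutant replicate 4 as for *Robo3*. *Aldh1a3*, a retinoic acid synthesis enzyme (0.679), *Rspo2*, a secreted Wnt pathway enhancer (0.738), *Cbln2*, a secreted synaptic organizer (0.75), and *Ngfr*, the low affinity neurotrophin receptor (0.753), were next, all with smaller log2 fold changes, between 1.27 and 1.62. Of these, only *Cbln2* was also highest in mutant replicate 4 (72.5 CPM). *Ngfr* (16.4 CPM) and *Aldh1a3* (9.37 CPM) had their lowest mutant value in that library, and *Rspo2* was highest in mutant replicate 1 (61.9 CPM).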

How the data were processed

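Cortex RNA of 4 control and 4 dcKO_Nex-Cre samples at postnatal day 1 was isolated with TRIZOL and sequenced from TruSeq RNA v2 libraries. For each sample the authors deposited raw counts of reads per Ensembl gene, with no normalization. The processing notes name the build mm10. The aligner, the counting program and its use of strand are not given in the sources used here. Nothing in the labels says that the samples are separate animals, so p values then measure the spread between these samples.

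Identifiers were matched to GENCODE M21 for 48349 of 48709 genes. Genes were filtered with filterByExpr, scaled by TMM and compared in edgeR 4.0.16 (R 4.3.3) with the quasi-likelihood F test (robust, two-sided, no covariates, all 8 samples), and p values were adjusted by Benjamini-Hochberg over 16287 genes at a threshold of 0.05. CPM used TMM-scaled library sizes, and RPKM divided CPM by the union of exons. The members and all gene lists were chosen with earlier results of these data known. In each further list the genes past the threshold are named, otherwise the 2 with the smallest p, together with the 5 nearest patterns to *Robo3* and the genes within 250 kb of it. Alternatives were DESeq2 1.42.0, limma-voom (limma 3.58.1), other filters and size factors, the replicate number as a block, lane tag 2 only, 1 surrogate variable (sva 3.50.0), each library left out and, chosen after the data were seen, both libraries above 6% mitochondrial counts left out. The scripts were tested on simulated counts. Reads were not checked for sharing between the paralogous members. No annotated gene with more than a few counts overlaps a member. No 2 libraries of a group were copies.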

Additional observations from a re-analysis of the deposited data

Results flagged for a closer look

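Among 70 groups of 4 library values examined, those of the 10 family members and of the genes near *Robo3* included, 4 had a library far from its other 3 by Dixon's test, where chance gives about 3.5. *Slit1* was at 67.32 CPM in control replicate 2, against 52.89 to 55.08 CPM in the other controls, and *Srgap1* was at 116.5 CPM in the same library, against 86.66 to 89.52 CPM. Without control replicate 2 the log2 fold change of *Slit1* went from -0.26 to -0.17 and that of *Srgap1* from -0.14 to -0.03. Near *Robo3*, *Siae* was at 13.96 CPM in control replicate 2 against 19.32 to 19.87 CPM, and *Ccdc15* was at 3.929 CPM in mutant replicate 4 against 4.704 to 4.783 CPM. These are the 2 libraries with the highest mitochondrial share, whose part in these values was not tested.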

How the results depend on the processing

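The count of members called higher includes *Robo3*, by which the family was chosen. Of 170 fold changes of members under the alternatives, 159 kept direction and side of the threshold, 8 newly passed and 3 changed sign, none of these called: *Srgap1* to 0.0653 within lane tag 2 and 0.0791 without both libraries of high mitochondrial share, and *Srgap3* to -0.0152 without mutant replicate 1 (-0.0152 to 0.141 with a library left out). Members called higher numbered 2 within lane tag 2 and 4 without the high mitochondrial libraries, and 1 to 4 with each library left out. Members called lower numbered 1 (*Slit3*) with 1 surrogate variable, and 0 to 0 with a library left out. Wider pathway genes called higher numbered 2 by DESeq2, 0 by limma-voom, 0 with the replicate block, 2 with 1 surrogate variable, 6 without the high mitochondrial libraries and 0 to 5 with a library left out; those called lower numbered 0 with the block, 4 with the surrogate variable, 4 without the high mitochondrial libraries and 0 to 1 with a library left out. Near *Robo3* the count higher was 1 without the high mitochondrial libraries and 0 to 1 with a library left out. Over all genes, 61 higher and 83 lower became 215 and 279 by DESeq2, 109 and 150 without a count filter, 21 and 33 with the block, 236 and 433 with the surrogate variable, 896 and 898 without the high mitochondrial libraries, and 9 to 659 and 9 to 619 with a library left out; lane tag 2 gave 140 higher. The cause was not tested. With the longest transcript as length, 4 genes changed rank (*Robo1* with *Srgap1*, *Slit2* with *Slit3*), and 0 to 2 with a control left out. The replicate numbers share only a number, since deviations of same-numbered samples correlated at -0.138 to 0.135, and the block changed no call of a member. Precision is limited by 4 libraries a group, by 63 to 94 reads of *Robo3* per control, and by the lane tags, since tag 8 holds no control.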
